A study of Mus musculus with 14 samples.

Results

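The 10 genes described here are growth regulators that vertebrate embryos express early and lower as tissues differentiate: the Myc genes Mycn and Myc, the let-7 regulators Lin28a, Lin28b and Trim71, the chromatin proteins Hmga1 and Hmga2, and the RNA-binding proteins Igf2bp1, Igf2bp2 and Igf2bp3. They were taken as a list of names from these gene families, set with earlier results of these data known, and all 10 were found among the 24454 genes of the count table. Each passed the filter on low counts. RNA-seq counts came from 14 libraries of 5 mesenchymal populations sorted from forelimb buds of mouse embryos. All embryos carried the Sox9 IRES-EGFP allele in a mixed Swiss Albino background, forelimb buds were pooled for each sort, and the gates kept living cells (7AAD-) without CD31, Ter119, CD45, EpCam, Gr1 or CD11b. The sorts asked how early limb mesenchymal progenitors (LMPs) differ from the osteo-chondrogenic progenitors (OCPs) and chondroblasts (CBs) of the cartilage lineage. At E10.5 (E, embryonic day) there were S9-JAG1+ LMPs, gated as Sox9-EGFP-negative, JAG1-positive and SCA-1-negative (3 libraries), and S9-Pαhi LMPs, negative for Sox9-EGFP, JAG1 and SCA-1 with high PDGFRα (3 libraries). S9+Pαhi OCPs were Sox9-EGFP-positive with high PDGFRα (3 libraries), and S9-SCA-1+ cells were negative for Sox9-EGFP and JAG1 and positive for SCA-1 (2 libraries, replicates 2 and 3). CBs (S9+COL2+, 3 libraries) came through the gate of the OCPs, but at E11.5, so population and stage cannot be told apart for them.

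MYC and MYCN are transcription factors that pair with MAX and raise genes for ribosomes, nucleotides and cell growth, and MYCN is known to sustain proliferation of limb bud mesenchyme. LIN28A and LIN28B bind the precursors of the let-7 microRNAs and block their maturation, while mature let-7 in turn represses the mRNAs of Lin28a, Lin28b, Trim71, Hmga2 and the Igf2bp family, so that the genes form a loop known for timing development. IGF2BP proteins stabilise bound mRNAs, the Myc mRNA among them, and HMGA proteins bend AT-rich DNA.

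The libraries held 20316583 to 29162751 counts, and 3 counts, the level taken as the floor, came to 0.101 to 0.149 CPM (counts scaled to a common library total after TMM normalisation). Jag1 stood at 228 to 364 CPM in the S9-JAG1+ LMPs, against at most 137 CPM elsewhere, and Col2a1 at 695 to 1230 CPM in OCPs and 1270 to 1890 CPM in CBs. Pdgfra was at 667 to 950 CPM in OCPs and CBs and at 360 to 530 CPM in S9-Pαhi LMPs. Lower levels were found in S9-JAG1+ LMPs (246 to 248 CPM) and S9-SCA-1+ cells (44.8 and 24 CPM). The paper describes both of these as sorted from PDGFRα-positive, Sox9-negative cells. S9-SCA-1+ libraries had 1490 CPM summed over 5 of 5 myoblast markers (Pax3, Lbx1, Met, Myf5, Myod1), against 1.93 to 10.4 CPM in the other populations, while Ly6a, which encodes SCA-1, reached 3.1 to 3.36 CPM there. Red cell markers summed to 116 CPM in replicate 2 and 3220 CPM in replicate 3 of the S9-SCA-1+ cells, against 2.42 to 73.2 CPM elsewhere. The 6 endothelial markers summed to 11.4 and 15.5 CPM in S9-SCA-1+ cells against 2.89 to 10.9 CPM elsewhere, and the 5 leukocyte markers to at most 0.677 CPM in any library. The 9 ectoderm markers summed to 20.1 to 23.9 CPM in CBs against 6.37 to 14.9 CPM elsewhere, and the 5 neural crest and glia markers to 21.1 to 29.2 CPM against 3.9 to 21.4 CPM. The part of these other cells in the results was not tested.

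The let-7 sequences are shown first, because the 3′UTRs of 8 of the 10 genes hold a match to them. In RefSeq (GRCm38.p6), the let-7 family and miR-98 share bases 2 to 8, the seed, given in capitals for 4 of them:
mmu-let-7a-5p: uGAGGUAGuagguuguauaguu
mmu-let-7d-5p: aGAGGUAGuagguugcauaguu
mmu-let-7g-5p: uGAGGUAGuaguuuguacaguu
mmu-miR-98-5p: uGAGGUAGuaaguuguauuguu
LIN28 proteins are known to bind GGAG in the loop of the precursor, and these letters (capitals) occur in 9 of 12 hairpins of the family, as in let-7g and not in let-7b:
Mirlet7g (chr9:106178840-106178927, + strand): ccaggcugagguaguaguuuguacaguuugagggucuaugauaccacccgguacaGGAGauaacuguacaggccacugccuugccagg
Mirlet7b (chr15:85707319-85707403, + strand): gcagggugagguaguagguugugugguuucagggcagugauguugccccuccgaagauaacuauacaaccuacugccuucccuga

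The complement of the seed, CTACCTC, was searched on the sense strand of the longest 3′UTR of a RefSeq-matched transcript of each gene (GENCODE, GRCm38). It occurred at least once in 8 of the 10 genes, against 8.43% of 19271 genes, and 0.736 times per kb of the members' 3′UTRs against 0.0708 per kb over all genes. Most of these genes are listed as known let-7 targets, so the share describes the list and tests nothing. The members' 3′UTRs were also longer, with a median of 2447 bases against 854. Lin28b, Trim71, Hmga2 and Igf2bp1 held 4 matches each, Lin28a held 2, Hmga1, Igf2bp2 and Igf2bp3 held 1 each, and Mycn and Myc held 0 in 913 and 442 bases. Matches 3 and 4 of Trim71 (within chr9:114509019-114509068) lie beyond the RefSeq end of the gene at 114511268. The match nearest the stop codon is shown in capitals for each gene that has one, within 24 bases of mRNA sense:
Lin28a (chr4:134005187-134005210, - strand): cacagcctgttgaaCTACCTCatt
Lin28b (chr10:45381020-45381043, - strand): cccgggcgggaagtCTACCTCatg
Trim71 (chr9:114512470-114512493, - strand): acattgcctaagtcCTACCTCagc
Hmga1 (chr17:27563278-27563301, + strand): cctctgttcacaaaCTACCTCtgg
Hmga2 (chr10:120364222-120364245, - strand): ccgacattcaatttCTACCTCagc
Igf2bp1 (chr11:95961776-95961799, - strand): ctgtgcgaagtaaaCTACCTCaag
Igf2bp2 (chr16:22059471-22059494, - strand): cacacaaataaaagCTACCTCagg
Igf2bp3 (chr6:49086785-49086808, - strand): gcatttttactcaaCTACCTCagg
A match is a run of letters and no measured site. Mature let-7 was not measured by these poly(A) libraries. The 12 genes of the counts named Mirlet7 or Mir98 held at most 5 counts in any library, so none was tested. Transcripts of other names that hold let-7 hairpins were not looked at.

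All 10 genes differed among the 5 populations (joint quasi-likelihood F test of edgeR, adjusted p at most 0.1), as did 74.8% of the 15125 genes tested. From OCPs to CBs all 10 genes fell, where 16.5% of all genes fell and 18.3% rose, and the median of the 10 log2 fold changes was -0.77, beside -0.02 over all genes. CBs against S9-JAG1+ LMPs, the ends of the order in which the study sets these populations, had 8 of 10 genes lower, 1 higher (Myc) and 1 not past the test (Hmga2), beside 30.5% of all genes lower and 35.4% higher. The 2 earlier steps were mixed: 2 genes rose and 3 fell from S9-JAG1+ to S9-Pαhi LMPs (15.2% and 12.8% of all genes), and 1 rose and 3 fell from S9-Pαhi LMPs to OCPs (11.8% and 8.35%). The latter count went to 1 without OCP replicate 2, to 2 without OCP replicate 3 or S9-Pαhi replicate 2 and to 8 without OCP replicate 1, and the former from 5 to 3 without S9-Pαhi replicate 1. OCP replicate 2 stood apart over all genes. Its counts differed from OCP replicates 1 and 3 by a chi-square of 76.3 and 40 per degree of freedom, against at most 22.7 for other replicate pairs. S9-SCA-1+ cells were higher than the mean of the other 4 populations for 6 genes and lower for 0, beside 23.5% and 22.8% of all genes. That mean, here and below, is taken over the 4 populations on the log2 scale. It takes in the CBs of E11.5, against which alone 10 genes were higher and 0 lower. Against OCPs 7 were higher and 0 lower, against S9-Pαhi LMPs 3 and 1, and against S9-JAG1+ LMPs 5 and 2. Shares over all genes were not counted for these single pairs, so these counts have no background to be read against. These comparisons share libraries, as do all that follow.

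The study's fold limit asks for a log2 fold change of 1.2 or more in size. With it, 4 genes remained in CBs against S9-JAG1+ LMPs (Mycn, Lin28a, Lin28b and Trim71), beside 19.4% of all genes. The limit left Lin28a and Lin28b in CBs against OCPs (7.77% of all genes), and Myc and Lin28a in S9-SCA-1+ cells (11.3%). It was reached by 0 members between the LMP populations, where 7% of all genes passed it, and by 0 between OCPs and S9-Pαhi LMPs, where 4.84% did. The largest member changes at those steps were -0.93 for Trim71 and -1.14 for Mycn on the log2 scale.

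**Figure D1:**
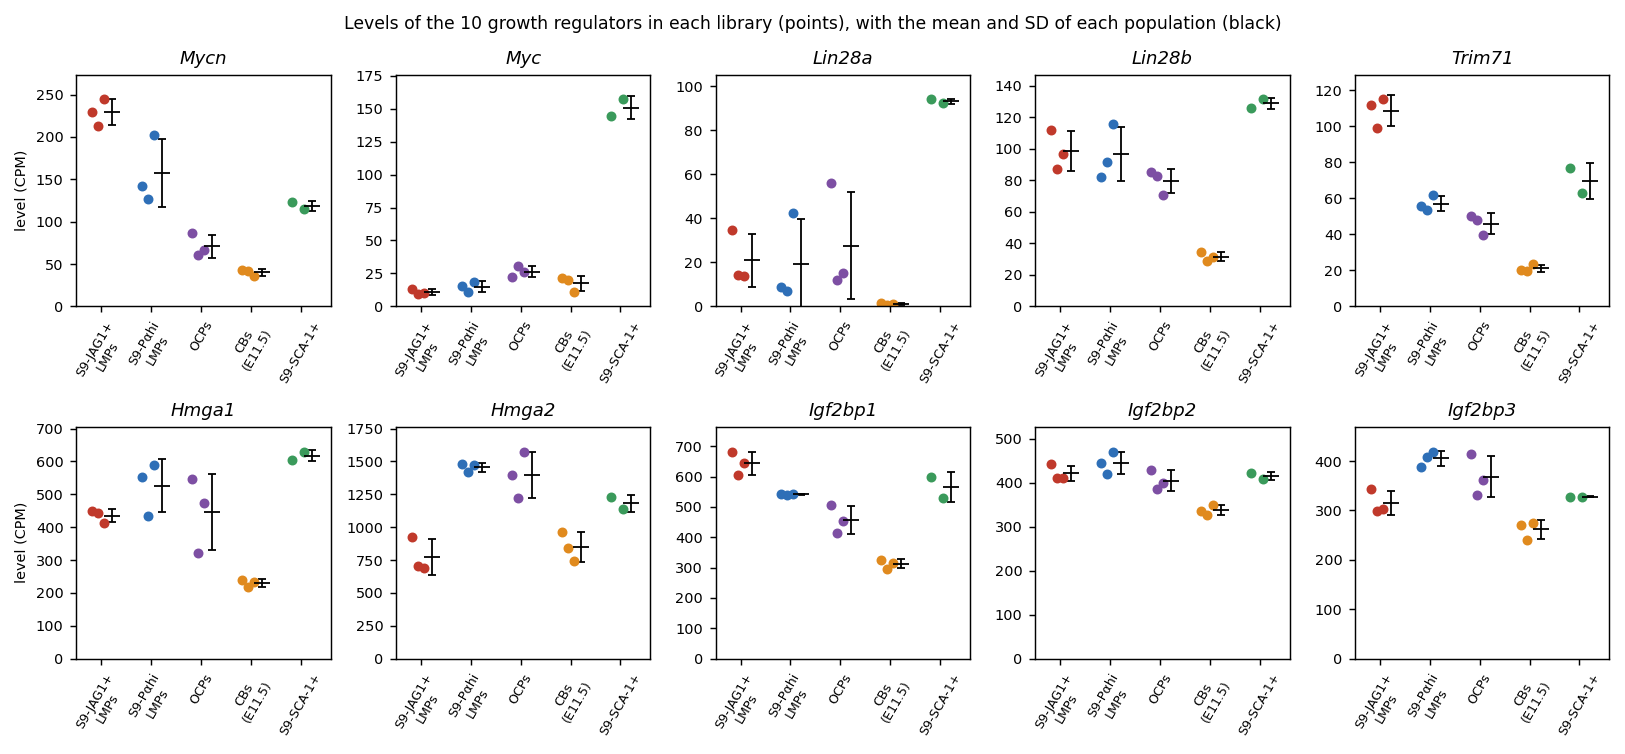
Level of each of the 10 genes in CPM (linear axes from 0) in the 14 libraries. Coloured points are libraries and black marks are the mean and SD of a population, n = 3, or n = 2 for S9-SCA-1+ cells, and the SD bar of Lin28a in S9-Pαhi LMPs is cut at 0. The CB points lie below the OCP points in every panel, and the S9-SCA-1+ points stand far above all others for Myc (144.5 and 157.1 CPM) and Lin28a (93.95 and 92.14 CPM).

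**Figure D2:**
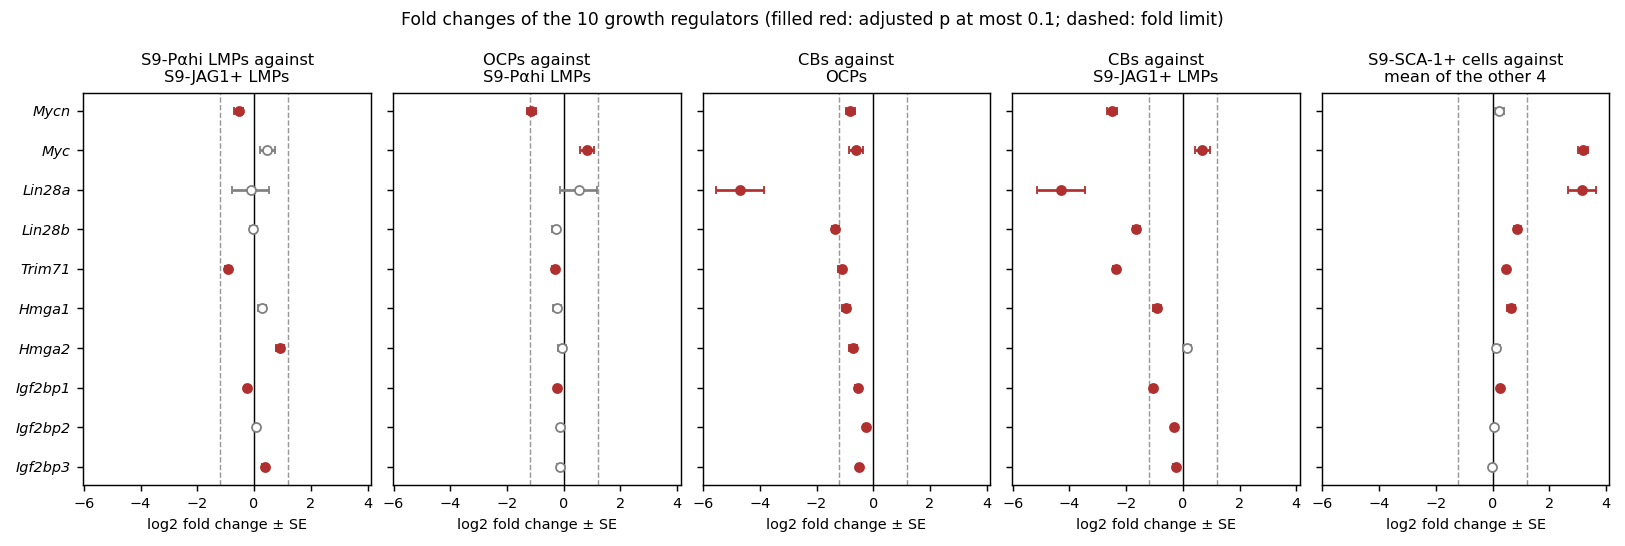
Log2 fold change with its standard error (SE) of each gene in 5 comparisons, from the edgeR fit to all 14 libraries. Filled points passed an adjusted p of 0.1 and dashed lines mark the fold limit of 1.2, and in CBs against OCPs all 10 points are filled and left of 0.

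Mycn (chr12:12936093-12941836) encodes the MYC protein of early mesenchyme and nervous tissue. It stood at 229, 213 and 244 CPM in the S9-JAG1+ LMPs and at 142, 127 and 203 CPM in the S9-Pαhi LMPs. OCPs had 86.6, 60.6 and 66.1 CPM, CBs 42.7, 42.1 and 35.8 CPM, and S9-SCA-1+ cells 123 and 115 CPM. No library of a population overlapped with the next in this series, and the S9-SCA-1+ cells lay between OCPs and S9-Pαhi LMPs. The 3 steps gave log2 fold changes of -0.54 ± 0.16 (SE, adjusted p = 0.0251), -1.14 ± 0.16 (0.000354) and -0.82 ± 0.16 (0.00236), and the whole fall from S9-JAG1+ LMPs to CBs was 5.69-fold (log2 fold change -2.51 ± 0.17, adjusted p = 4.07e-08). The first step missed the threshold without S9-Pαhi replicate 1 (-0.48, adjusted p = 0.107) or replicate 2 (-0.41, adjusted p = 0.112). The second passed the fold limit without S9-Pαhi replicate 1 (-1.21), S9-Pαhi replicate 2 (-1.28) or OCP replicate 1 (-1.31). S9-SCA-1+ cells differed from the mean of the other 4 by 0.24 ± 0.15 (adjusted p = 0.216), which passed without S9-Pαhi replicate 3 (0.29, adjusted p = 0.0536) or OCP replicate 1 (0.28, adjusted p = 0.0915).

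Myc (chr15:61985341-61990361), the MYC gene of most dividing tissues, did not fall with Mycn. It stood at 13.2, 9.35 and 9.91 CPM in the S9-JAG1+ LMPs, at 15.8, 10.7 and 18.5 CPM in the S9-Pαhi LMPs, and at 22.4, 30.8 and 25.9 CPM in OCPs. CBs had 21.5, 20.0 and 10.7 CPM. The S9-SCA-1+ libraries were far above, with 144.5 and 157.1 CPM, and shared no value with another population. Against the mean of the other 4 the difference was 9.14-fold (log2 fold change 3.19 ± 0.18, adjusted p = 5.54e-09), and it was 3.13 without replicate 3, the library with the most red cell RNA, and 3.25 without replicate 2. The myoblast marker sum moved with it, and its part was not tested. From S9-Pαhi LMPs to OCPs Myc rose by a log2 fold change of 0.82 ± 0.24 (adjusted p = 0.0395), and from OCPs to CBs it fell by 0.60 ± 0.24 (adjusted p = 0.0788). The rise missed the threshold without S9-Pαhi replicate 2 (0.62, adjusted p = 0.123) or OCP replicate 2 (0.68, adjusted p = 0.117). The fall missed it without OCP replicate 2 (-0.51, adjusted p = 0.129), OCP replicate 3 (-0.62, adjusted p = 0.116) or CB replicate 3 (-0.37, adjusted p = 0.217). CBs against S9-JAG1+ LMPs gave 0.69 ± 0.25 (adjusted p = 0.0263), and 0.55, 0.49 and 0.55 (adjusted p = 0.108, 0.131 and 0.109) without S9-JAG1+ replicate 2, CB replicate 1 and CB replicate 2. Between the LMP populations Myc differed by 0.47 ± 0.25 (adjusted p = 0.211), and this passed without S9-Pαhi replicate 2 (0.66, adjusted p = 0.0921) or CB replicate 3 (0.47, adjusted p = 0.0951).

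Per kb of exon, Mycn exceeded Myc by 16.1 to 22.8 times in the S9-JAG1+ LMPs and by 8.34 to 11.0 times in the S9-Pαhi LMPs. The ratio was 1.82 to 3.58 in OCPs and 1.84 to 3.1 in CBs, ranges that overlap. In S9-SCA-1+ cells it was 0.675 and 0.787, so Myc was the more abundant of the pair per kb in that population alone among the 5. In mean CPM per kb, Mycn went from 88.2 ± 5.96 (SD, n = 3) in S9-JAG1+ LMPs to 15.5 ± 1.48 (n = 3) in CBs, and Myc in S9-SCA-1+ cells was at 62.9 ± 3.7 (n = 2).

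**Figure D3:**
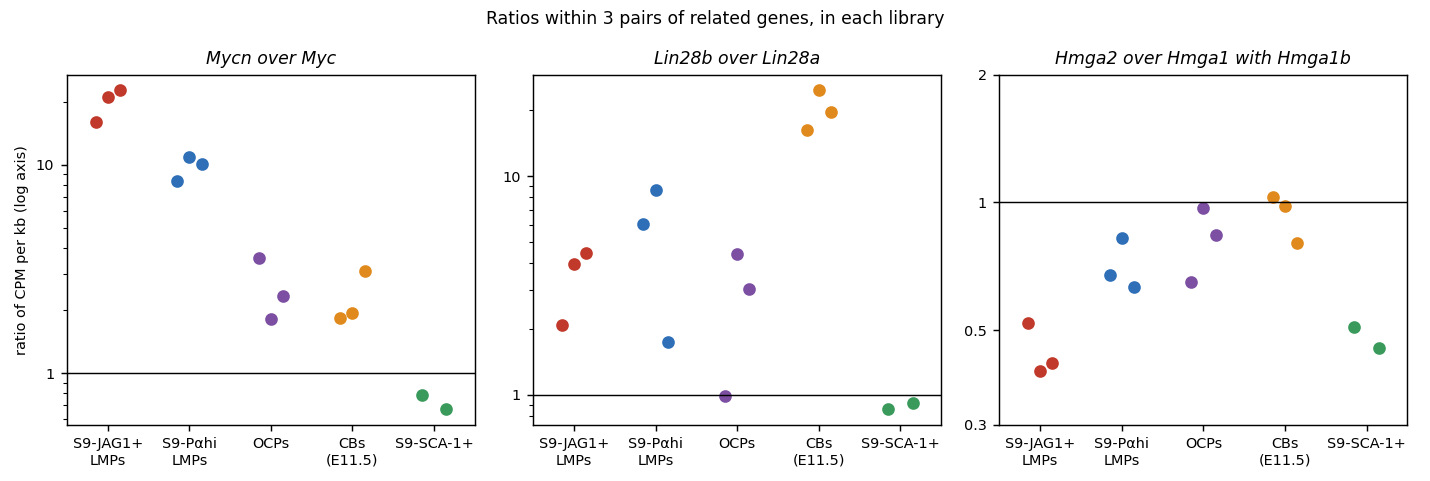
Ratio of the levels per kb of exon (CPM per kb, log axes) within 3 pairs of related genes, 1 point for each library, with Hmga2 set against the sum of Hmga1 and its copy Hmga1b. The Mycn over Myc ratio falls from 16.1 to 22.8 in S9-JAG1+ LMPs to below 1 in S9-SCA-1+ cells, and the Lin28b over Lin28a ratio is highest in CBs, at 16.2 to 24.6.

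Lin28a (chr4:134003330-134019196), which encodes the LIN28 protein of pluripotent cells and early embryos, was the member with the widest range. CBs held 1.38, 0.753 and 1.02 CPM (41, 22 and 26 counts), above the floor of 3 counts. OCPs had 55.8, 12.0 and 15.1 CPM, S9-Pαhi LMPs 8.78, 6.85 and 42.6 CPM, and S9-JAG1+ LMPs 34.7, 14.1 and 14.0 CPM. S9-SCA-1+ cells had 93.95 and 92.14 CPM, the highest of all. The 3 populations in between overlapped each other and left a gap to CBs below and to S9-SCA-1+ cells above. CBs were lower than OCPs by 26.1-fold (log2 fold change -4.71 ± 0.85, adjusted p = 0.00127) and lower than S9-JAG1+ LMPs by 19.7-fold (-4.30 ± 0.85, adjusted p = 0.000624). S9-SCA-1+ cells exceeded the mean of the other 4 by 8.94-fold (3.16 ± 0.50, adjusted p = 0.000204), with 3.15 and 3.17 without replicate 2 and replicate 3. That mean is of log2 levels, so the low CBs, which S9-SCA-1+ cells exceeded by 87.9-fold, raise the figure. Mean CPM was 93.05 in S9-SCA-1+ cells, 20.91 in S9-JAG1+ LMPs, 19.41 in S9-Pαhi LMPs, 27.62 in OCPs and 1.051 in CBs. The excess was 4.46-fold over S9-JAG1+ LMPs (2.16 ± 0.70, adjusted p = 0.0363) and 4.86-fold over S9-Pαhi LMPs (2.28 ± 0.70, adjusted p = 0.0294). Over OCPs it was 3.36-fold (1.75 ± 0.69, adjusted p = 0.0607). The steps before CBs did not pass the test: -0.12 ± 0.65 (adjusted p = 0.918) between the LMP populations and 0.53 ± 0.65 (adjusted p = 0.618) to OCPs. The former turned to 0.45, 0.23 and 0.29 without S9-JAG1+ replicate 1, S9-Pαhi replicate 1 and S9-Pαhi replicate 2. The latter turned to -0.49 without OCP replicate 1 and passed test and fold limit at 1.82 (adjusted p = 0.0935) without S9-Pαhi replicate 3.

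Lin28a also varied most within populations. The libraries of S9-Pαhi LMPs spanned 6.22-fold, those of OCPs 4.64-fold and those of S9-JAG1+ LMPs 2.49-fold. The pooled SD of log2 CPM within populations was 0.96, which 0.236% of 11885 genes exceeded, beside a median of 0.15 over these genes. Myc came next among the members with 0.36, and Igf2bp2 was the steadiest with 0.07. In the 4 populations with 3 libraries, the library with the most Lin28a had the least Col2a1, the cartilage collagen, a marker picked for this after its values were seen. In S9-SCA-1+ cells, replicate 2 was the higher for both, with 168 CPM of Col2a1 against 159 CPM in replicate 3. Sox9, the other cartilage gene among the sorting markers, was likewise lowest in that library in S9-JAG1+ LMPs (32 CPM) and CBs (411 CPM), but not in OCPs, at 434, 432 and 445 CPM, nor in S9-Pαhi LMPs, where it was highest there, at 64.3, 57.2 and 65.5 CPM. OCP replicate 1 had 55.8 CPM of Lin28a and 695 CPM of Col2a1, where replicates 2 and 3 had 1230 and 1050 CPM of Col2a1. S9-Pαhi replicate 3 had 42.6 CPM of Lin28a and 60.8 CPM of Col2a1, against 114 and 94.6 CPM of Col2a1 in replicates 1 and 2. In S9-JAG1+ LMPs the Col2a1 levels of replicates 1 and 3 were close, at 23.2 and 23.7 CPM. The other members leaned the same way in part: S9-Pαhi replicate 3 was the highest of its population for 9 of 10 members, and OCP replicate 1 and S9-JAG1+ replicate 1 for 8 of 10 each. These counts include Lin28a itself, by which the libraries were picked. How often these libraries were the highest over all genes was not counted, so this may not be particular to the members. What links these levels was not tested.

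**Figure D4:**
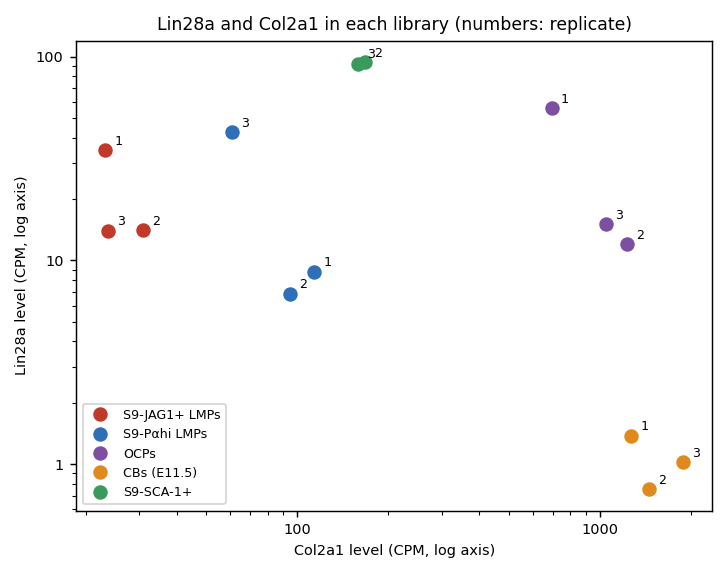
Lin28a level against Col2a1 level, both in CPM on log axes, 1 point for each library and a number for its replicate. Within S9-Pαhi LMPs, OCPs and CBs the library highest in Lin28a lies farthest left, S9-Pαhi replicate 3 at 42.6 CPM of Lin28a and OCP replicate 1 at 55.8 CPM among them.

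Lin28b (chr10:45376617-45486314), the paralog with the same let-7 target loops, was steadier and more evenly spread. It stood at 112, 87.0 and 96.5 CPM in S9-JAG1+ LMPs, at 82.4, 91.9 and 116 CPM in S9-Pαhi LMPs, and at 85.6, 82.6 and 71.0 CPM in OCPs. CBs had 34.7, 28.7 and 31.1 CPM and S9-SCA-1+ cells 126 and 131 CPM. CBs lay below and S9-SCA-1+ cells above all other libraries, and S9-Pαhi LMPs overlapped with both S9-JAG1+ LMPs and OCPs. From OCPs to CBs Lin28b fell 2.53-fold (log2 fold change -1.34 ± 0.13, adjusted p = 1.03e-05), and from S9-JAG1+ LMPs 3.12-fold (-1.64 ± 0.13, adjusted p = 2.07e-07). The earlier steps were -0.03 ± 0.13 (adjusted p = 0.913) and -0.28 ± 0.13 (adjusted p = 0.17). The first of these turned to 0.08, 0.08 and 0.01 without S9-JAG1+ replicate 1, S9-Pαhi replicate 1 and S9-Pαhi replicate 2, and the second passed without S9-Pαhi replicate 1 (-0.38, adjusted p = 0.0983) or OCP replicate 1 (-0.33, adjusted p = 0.0988). S9-SCA-1+ cells exceeded the mean of the other 4 by 0.88 ± 0.11 on the log2 scale (adjusted p = 2.72e-05). Per kb, Lin28b was 16.2 to 24.6 times Lin28a in CBs, 0.988 to 4.43 times in OCPs, and 0.865 and 0.918 times in S9-SCA-1+ cells.

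Trim71 (chr9:114511268-114564369), a ubiquitin ligase and mRNA repressor named after the worm gene lin-41, a classical let-7 target, stepped down between the LMP populations as well as at the last step. S9-JAG1+ LMPs had 112, 98.7 and 115 CPM, S9-Pαhi LMPs 56.0, 53.3 and 62.0 CPM, OCPs 50.4, 47.8 and 39.6 CPM, and CBs 20.3, 19.5 and 23.4 CPM. S9-SCA-1+ cells had 76.5 and 62.7 CPM. No 2 populations overlapped. The step between the LMP populations was already 1.9-fold (log2 fold change -0.93 ± 0.11, adjusted p = 4.37e-05), the step to OCPs was small (-0.31 ± 0.11, adjusted p = 0.0877), and CBs were 2.18-fold below OCPs (-1.12 ± 0.12, adjusted p = 1.59e-05). Over the whole order Trim71 fell 5.15-fold (-2.36 ± 0.12, adjusted p = 3.97e-09). The small step missed the threshold without S9-JAG1+ replicate 1 (adjusted p = 0.101), S9-Pαhi replicate 1 (0.152), S9-Pαhi replicate 3 (0.279), OCP replicate 2 (0.101) or OCP replicate 3 (0.214), at log2 fold changes of -0.25 to -0.39 over the alternatives. The last step passed the fold limit without OCP replicate 3 (-1.24) or CB replicate 3 (-1.23). In S9-SCA-1+ cells Trim71 was 0.49 ± 0.10 above the mean of the other 4 (adjusted p = 0.00162), 0.34 without replicate 2 and 0.63 without replicate 3. It was lower there than in S9-JAG1+ LMPs (-0.64 ± 0.13, adjusted p = 0.00177) and did not pass against S9-Pαhi LMPs (0.29 ± 0.13, adjusted p = 0.12). It was higher than in OCPs (0.60 ± 0.13, adjusted p = 0.00193) and CBs (1.72 ± 0.13, adjusted p = 1.14e-07).

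Hmga1 (chr17:27556574-27563672) encodes an AT-hook protein of open, dividing chromatin. Its level was 451, 443 and 413 CPM in S9-JAG1+ LMPs, 553, 435 and 590 CPM in S9-Pαhi LMPs and 546, 320.3 and 475 CPM in OCPs. CBs had 238, 218 and 235 CPM and S9-SCA-1+ cells 606 and 630 CPM. CBs were below all other libraries and S9-SCA-1+ cells above. CBs fell 1.94-fold from OCPs (log2 fold change -0.96 ± 0.15, adjusted p = 0.000551), and S9-SCA-1+ cells exceeded the mean of the other 4 by 0.66 ± 0.14 (adjusted p = 0.00162). Against S9-Pαhi LMPs alone, S9-SCA-1+ cells did not pass the test (0.23 ± 0.17, adjusted p = 0.372). The LMP populations differed by 0.27 ± 0.15 (adjusted p = 0.238), which passed without OCP replicate 2 (0.28, adjusted p = 0.0437), a library outside this comparison that enters the estimate of the spread. OCPs differed from S9-Pαhi LMPs by -0.23 ± 0.15 (adjusted p = 0.331), and by -0.40 (adjusted p = 0.0571) without OCP replicate 1. Hmga1 shares its reads with the near-identical copy Hmga1b: it held 51.4% to 52% of the summed counts in every library, and 1 position was kept for a read that fits several. The sum fell from OCPs to CBs by the same log2 fold change of -0.96 ± 0.16, so the values are those of the pair.

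Hmga2 (chr10:120361268-120476469), a let-7 target and stem cell chromatin protein, stood at 929, 705 and 687 CPM in S9-JAG1+ LMPs, at 1478, 1418 and 1473 CPM in S9-Pαhi LMPs, and at 1399, 1224 and 1574 CPM in OCPs. CBs had 965, 845 and 739.7 CPM and S9-SCA-1+ cells 1226 and 1136 CPM. The order differed from that of most members: S9-JAG1+ LMPs and CBs were low and overlapped, and S9-Pαhi LMPs and OCPs were high and overlapped. Hmga2 rose 1.88-fold from S9-JAG1+ to S9-Pαhi LMPs (log2 fold change 0.91 ± 0.13, adjusted p = 0.000143) and fell 1.65-fold from OCPs to CBs (-0.72 ± 0.13, adjusted p = 0.00111). The step between those was -0.06 ± 0.13 (adjusted p = 0.796), and 0.02 without OCP replicate 2. CBs and S9-JAG1+ LMPs differed by 0.14 ± 0.13 (adjusted p = 0.371), which passed at 0.29 (adjusted p = 0.0577) without S9-JAG1+ replicate 1 and at 0.26 (adjusted p = 0.0774) with library totals in place of TMM. Per kb, Hmga2 was 0.78 to 1.01 times the level listed for Hmga1 in S9-JAG1+ LMPs, 1.22 to 1.6 times in S9-Pαhi LMPs and 1.54 to 1.99 times in CBs. Against the sum of Hmga1 and Hmga1b, per kb of Hmga1 exon, the ratio was 0.401 to 0.521, 0.631 to 0.825 and 0.802 to 1.03, so which of the pair is the more abundant turns with how the shared reads are assigned, while the ratio was lower in S9-JAG1+ LMPs than in S9-Pαhi LMPs and CBs both ways.

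Igf2bp1 (chr11:95957163-96005944) encodes an RNA-binding protein that shields mRNAs such as Myc and Actb from decay. It had 682, 606 and 645 CPM in S9-JAG1+ LMPs, 543, 538 and 543 CPM in S9-Pαhi LMPs and 506, 414 and 454 CPM in OCPs. CBs had 325, 297 and 316 CPM, and S9-SCA-1+ cells had 599 and 529 CPM. The 4 populations of the cartilage order did not overlap. The 3 steps were small and each passed the test: -0.25 ± 0.08 (adjusted p = 0.0451), -0.24 ± 0.08 (0.0742) and -0.55 ± 0.08 (0.000348) in log2 fold change, which added up to a 2.06-fold fall from S9-JAG1+ LMPs to CBs (-1.04 ± 0.08, adjusted p = 2.07e-07). The first missed the threshold without S9-JAG1+ replicate 1 (adjusted p = 0.143), S9-JAG1+ replicate 3 (0.151), S9-Pαhi replicate 1 (0.11) or S9-Pαhi replicate 2 (0.107), at -0.21 to -0.25. The second missed it without any of S9-Pαhi replicates 1, 2 or 3 (adjusted p = 0.154, 0.116 and 0.176) or OCP replicates 2 or 3 (0.179 and 0.132), at -0.19 to -0.26. In S9-SCA-1+ cells Igf2bp1 was 0.26 ± 0.08 above the mean of the other 4 (adjusted p = 0.0169), and 0.16 without replicate 2. It did not pass against S9-JAG1+ LMPs (-0.19 ± 0.09, adjusted p = 0.164) or S9-Pαhi LMPs (0.06 ± 0.09, adjusted p = 0.704). It was higher than in OCPs (0.30 ± 0.09, adjusted p = 0.0203) and CBs (0.85 ± 0.09, adjusted p = 4.06e-06).

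Igf2bp2 (chr16:22059009-22163299), the family member that persists longest in adult tissue, moved least. It ranged from 384.7 to 470.3 CPM over the libraries of S9-JAG1+ LMPs, S9-Pαhi LMPs, OCPs and S9-SCA-1+ cells, all of which overlapped with at least one neighbour in level. CBs had 337, 328 and 349 CPM, below all other libraries. The fall from OCPs was 1.2-fold (log2 fold change -0.26 ± 0.07, adjusted p = 0.0144) and from S9-JAG1+ LMPs 1.25-fold (-0.32 ± 0.07, adjusted p = 0.00145). The step to S9-Pαhi LMPs was 0.08 ± 0.07 (adjusted p = 0.472) and that to OCPs -0.14 ± 0.07 (adjusted p = 0.218), which passed at -0.18 (adjusted p = 0.0832) without OCP replicate 1.

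Igf2bp3 (chr6:49085218-49215469), an oncofetal paralog, had 343, 298 and 302 CPM in S9-JAG1+ LMPs, 388, 408 and 419 CPM in S9-Pαhi LMPs and 414, 331 and 361 CPM in OCPs. CBs had 269.9, 240.0 and 276 CPM and S9-SCA-1+ cells 327 and 328 CPM. Like Hmga2 it rose between the LMP populations, by 0.37 ± 0.09 on the log2 scale (adjusted p = 0.00972), and fell from OCPs to CBs by 0.49 ± 0.09 (adjusted p = 0.00137). The step between, -0.14 ± 0.09 (adjusted p = 0.334), passed at -0.23 (adjusted p = 0.0663) without OCP replicate 1. CBs were 0.26 ± 0.09 below S9-JAG1+ LMPs (adjusted p = 0.0209), but the test was missed at -0.20 (adjusted p = 0.101) without S9-JAG1+ replicate 1 and at -0.14 (adjusted p = 0.14) with library totals in place of TMM. Of its annotated exon bases, 18.7% overlap Malsu1 on the other strand, more than for any other member (0% to 5.86%). Whether strand was used in the counting is not given in the sources used here, so reads of the 2 genes may not be told apart.

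The level order of the 5 populations was thus not shared by all members. By mean level, CBs were lowest for 8 of 10 genes, and S9-JAG1+ LMPs for Myc and Hmga2. For Myc and Hmga2 the lowest did not pass the test against the next population (adjusted p = 0.211 and 0.371). The highest mean was in S9-JAG1+ LMPs for Mycn, Trim71 and Igf2bp1, in S9-Pαhi LMPs for Hmga2, Igf2bp2 and Igf2bp3, and in S9-SCA-1+ cells for Myc, Lin28a, Lin28b and Hmga1. The highest did not pass against the next for Igf2bp1, Hmga2, Igf2bp2, Igf2bp3 and Hmga1 (adjusted p = 0.164, 0.796, 0.472, 0.334 and 0.372), so their top rank is not settled. The highest population mean exceeded the lowest by 88.5-fold for Lin28a, 13.9-fold for Myc, 5.7-fold for Mycn and 1.32-fold for Igf2bp2. Of 40 pairs of neighbours in these orders, 18 (45%) passed the test and 22 did not, beside 18.5% of such pairs over all genes tested, and 23 (57.5%) did not overlap, beside 28.5%. The count of 18 went to 23 without OCP replicate 1 and to 14 without OCP replicate 3. In bulk libraries, fewer cells that express a gene and less of its RNA per cell cannot be told apart.

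**Figure D5:**
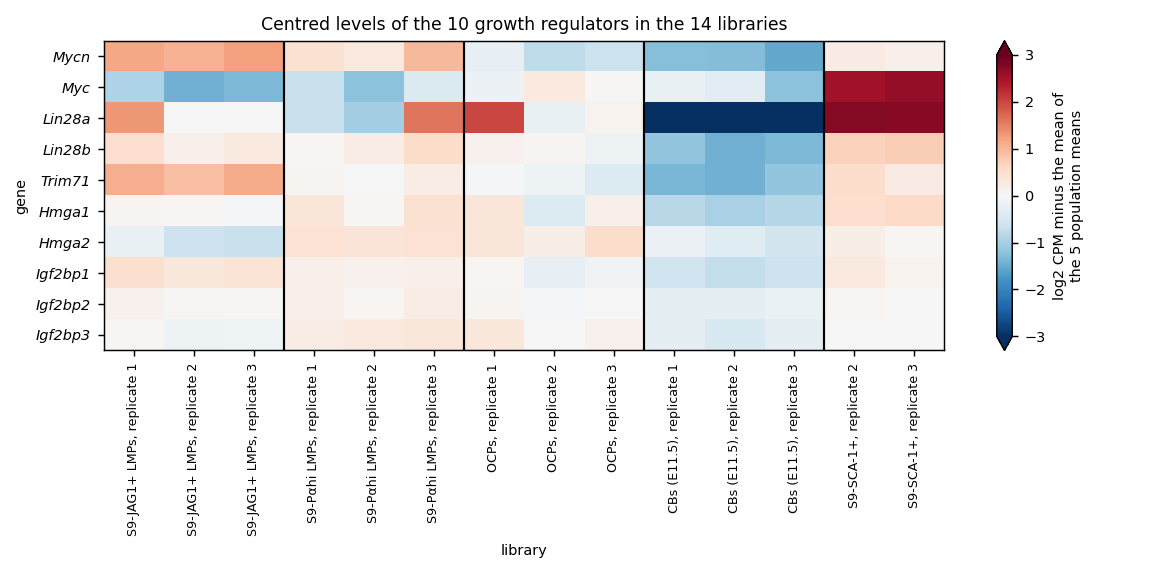
Log2 CPM of each gene in each library minus the mean of the 5 population means, from blue (lower) to red (higher), with Lin28a in CBs below the end of the scale. The CB columns are blue for all members. Myc and Lin28a are the only deep red rows of the S9-SCA-1+ columns (9.14-fold and 8.94-fold above the mean of the other 4, taken on the log2 scale).

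The genes around the members in their pathways were taken from lists written with earlier results of these data known, so their counts are a description. All 19 Myc targets in ribosome and nucleotide synthesis fell from S9-JAG1+ LMPs to CBs, as did 30.5% of all genes, with a median log2 fold change of -1.33 beside 0.05 over all genes. In the 3 steps 12, 14 and 16 of the 19 fell and 0 rose, where 12.8%, 8.35% and 16.5% of all genes fell. Cad, the enzyme that starts pyrimidine synthesis, fell by 1.60 ± 0.12 and Hspd1, a mitochondrial chaperone, by 1.56 ± 0.15, while the translation factor Eif4e fell by 0.48 ± 0.08 and Cdk4 by 0.39 ± 0.13. In S9-SCA-1+ cells 18 of 19 were above the mean of the other 4, as were 23.5% of all genes, with a median of 0.69 beside -0.01. Cdk4 was the exception at 0.15 ± 0.12 (adjusted p = 0.328). That mean takes in OCPs and CBs, and S9-JAG1+ LMPs alone were not set against S9-SCA-1+ cells for this list. Cad overlapped between them (490 and 404 against 472, 493 and 451 CPM). Hspd1 was higher in S9-SCA-1+ cells (889 and 962 against 753, 677 and 653 CPM) and Ldha lower (804 and 819 against 1229, 913 and 936 CPM). In CBs against S9-JAG1+ LMPs Mycn was lower and Myc higher. In S9-SCA-1+ cells against the mean of the other 4, Myc was higher and Mycn did not pass the test.

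Among 11 partners of MYC and MAX, 3 rose and 2 fell in CBs against S9-JAG1+ LMPs (median -0.04), no larger a share than the 35.4% and 30.5% of all genes. Mxd4, a MAX partner that represses MYC targets, had 12.4, 11.3 and 12.3 CPM in S9-JAG1+ LMPs, 35.8, 30.5 and 22.2 CPM in S9-Pαhi LMPs, 39.2, 41.5 and 47.1 CPM in OCPs and 55.5, 59.2 and 64.6 CPM in CBs. It rose at each step, by 1.30 ± 0.14 at the first (adjusted p = 1.75e-05) and by 2.31 ± 0.15 over the order (adjusted p = 2.37e-08). Mxd1, of the same family, rose by 1.02 ± 0.11, and Max and Mlxip fell by 0.41 ± 0.10 and 0.40 ± 0.08.

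The 19 let-7 targets outside the members had 11 lower and 4 higher in CBs against S9-JAG1+ LMPs, with a median of -0.30, beside 30.5% of all genes lower, 35.4% higher and a median of 0.05. Igdcc3, a cell surface protein of the immunoglobulin family, had 423 to 633 CPM in S9-JAG1+ LMPs, 578 to 951 CPM in S9-Pαhi LMPs, 409 to 745 CPM in OCPs and 40.6 to 51.4 CPM in CBs. It fell by 3.58 ± 0.25 from OCPs to CBs (adjusted p = 6.13e-07), a drop at the same step as that of Lin28a. Arid3a, a DNA-binding protein, fell by 2.12 ± 0.13 over the order. The cyclins Ccnd2 and Ccnd1 rose, by 0.76 ± 0.12 and 0.42 ± 0.12. Of 11 genes for microRNA processing and decay, 4 fell and 3 rose (median -0.08), near or below the 30.5% and 35.4% of all genes: the nuclear enzyme Drosha fell by 0.62 ± 0.08 and the export factor Xpo5 by 0.80 ± 0.09, while Tut7 and Tut4, the uridylating enzymes that LIN28 recruits, rose by 0.37 ± 0.13 and 0.28 ± 0.13.

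Of 7 transcripts known to be bound by IGF2BP proteins, 4 rose and 1 fell in CBs against S9-JAG1+ LMPs (median 0.55), where 35.4% and 30.5% of all genes did. Igf2, the growth factor the family is named for, had 3018, 2249 and 2198 CPM in S9-JAG1+ LMPs and 5587, 5421 and 5629 CPM in S9-Pαhi LMPs. OCPs had 7347, 4081 and 6164 CPM, and CBs 6056, 6452 and 6729 CPM. In CBs against S9-JAG1+ LMPs Igf2 rose by 1.37 ± 0.18 (adjusted p = 1.49e-05) and its imprinted neighbour H19 by 1.55 ± 0.13 (adjusted p = 2.7e-07), while all 3 Igf2bp genes fell. Of the steps, Igf2 passed only that between the LMP populations (1.16 ± 0.17, adjusted p = 0.000269), where Igf2bp1 fell and Igf2bp3 rose. It changed by 0.08 ± 0.17 to OCPs (adjusted p = 0.788). From OCPs to CBs, where all 3 Igf2bp genes fell, Igf2 changed by 0.13 ± 0.17 (adjusted p = 0.617) and H19 by 0.51 ± 0.13 (adjusted p = 0.00973). Mapk4 rose by 0.55 ± 0.27 and Actb fell by 0.26 ± 0.07 in CBs against S9-JAG1+ LMPs, and Cd44 rose by 1.41 ± 0.28 from OCPs to CBs (adjusted p = 0.0022). Of the 7 other HMG chromatin proteins, 4 fell and 1 rose in CBs against S9-JAG1+ LMPs (median -0.40), where 30.5% and 35.4% of all genes did: Hmgn5 fell by 0.66 ± 0.15, Hmgb2, abundant in dividing cells, by 0.60 ± 0.09 and Hmgb3 by 0.40 ± 0.10, and Hmgn3 rose by 0.85 ± 0.10.

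The canonical MYC site CACGTG, which reads the same on both strands, was searched in the 300 bases around the starts of the 8 members with a RefSeq promoter window (250 bases before to 50 after). It occurred in 2 of 9 windows, 2 times in Igf2bp3 and 1 time in Lin28b, against 7.15% of 32851 windows. Of these windows, 2 belong to Hmga1 and overlap (chr17:27556324-27556623 and chr17:27556354-27556653). That of Lin28b (chr10:45470152-45470451, - strand) lies inside the gene, which extends to 45486314. With so few windows the count is a description and tests nothing, and MYC binding was not measured.

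The genes most like each member over the 14 libraries, by Pearson r of log2 CPM, are given as a description, since the libraries of a population are alike in many genes. Mycn was most like Mybl2, a transcription factor of cycling cells (r = 0.982), Msh6 and Mns1. Trim71 was most like Arid3a (r = 0.988), itself on the let-7 target list, and then Ctdp1 and Hnrnpu. Igf2bp1 was most like Atp2a2 (r = 0.987), Set and Uhrf1, and Igf2bp2 like Rbm3 (r = 0.987), Rhno1 and Ahcy. Myc was most like Lpl (r = 0.978), Shc2 and Tnik, all highest in S9-SCA-1+ cells. Lin28b went with Gtf3a (r = 0.974), Rbm38 and Vrk1, and Lin28a with Sox13 (r = 0.963), Scrn2 and Rps12. Hmga2 was most like Rnf122 (r = 0.962), then its own pseudogene copy Hmga2-ps1 and BC052040, Igf2bp3 like Adk (r = 0.952), Parvb and Mest, and Hmga1, after its copy Hmga1b, like Chchd2 and Rpl19. Among the members, Trim71 and Igf2bp1 were the closest pair (r = 0.97), Trim71 and Mycn had r = 0.94, and Mycn and Myc had r = -0.12.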

How the data were processed

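The authors deposited 1 table of raw read counts per gene, with Entrez identifiers and exon lengths, for 14 poly(A) libraries. Per the study's methods, single-end reads were aligned with STAR to mm10, 1 position was kept for a read that fits several, and reads that start in exons of RefSeq mRNAs were counted with QuasR. Symbols were matched for 24374 of 24454 identifiers. The other 80 held 0.358% of the counts. Genes were kept with filterByExpr (15125), totals scaled with TMM, and a mean for each population fitted to all libraries with the quasi-likelihood F test of edgeR 4.0.16 (R 4.3.3). P values were adjusted by Benjamini-Hochberg over all genes. A gene passed at an adjusted p of at most 0.1. The fit was tested on simulated data. Totals bound counting error only, and p-values measure the spread between pooled sorts. Members and lists were chosen with earlier results of these data known. All 10 members are named; from each list, the 2 largest and the 2 smallest log2 fold changes past the test in CBs against S9-JAG1+ LMPs, and any that reached the fold limit in another comparison; and for each member the 3 most similar genes with a mean of at least 1 log2 CPM (prior count 2). Alternatives were other scalings, filters, DESeq2 1.42.0, a replicate block, fewer populations and each library left out.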

Additional observations from a re-analysis of the deposited data

How the results depend on the processing

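Under other scalings, filters, tests and samples, the direction of each member's change in each comparison was kept except as given here. For S9-Pαhi against S9-JAG1+ LMPs, Lin28a turned from -0.12 to 0.45, 0.23 and 0.29 and Lin28b from -0.03 to 0.08, 0.08 and 0.01 without S9-JAG1+ replicate 1, S9-Pαhi replicate 1 and S9-Pαhi replicate 2, over ranges of -1.42 to 0.45 and -0.18 to 0.08. For OCPs against S9-Pαhi LMPs, Lin28a ranged from -0.49 without OCP replicate 1 to 1.82 without S9-Pαhi replicate 3, and Hmga2 from -0.18 to 0.02, the latter without OCP replicate 2. None of the turned values passed the test. The number of members that passed in OCPs against S9-Pαhi LMPs was 4, and it was 2 when only the populations compared were fitted and 2 at an adjusted p of at most 0.05. Calls of single members lost beside those under left-out libraries were Myc from OCPs to CBs (library totals, adjusted p = 0.127; only the populations compared, 0.145), and, to OCPs, Trim71 (0.112 and 0.193) and Igf2bp1 (only the populations compared, 0.23), and Igf2bp3 in CBs against S9-JAG1+ LMPs (library totals, 0.14). At an adjusted p of at most 0.05 these steps of Myc, Trim71 and Igf2bp1 were lost too. Leaving out 1 library gave 1 to 8 members in OCPs against S9-Pαhi LMPs, 0 to 1 with the fold limit, and 3 to 6 for S9-Pαhi against S9-JAG1+ LMPs. Library totals in place of TMM moved the split of all genes in CBs against S9-JAG1+ LMPs from 5348 higher and 4618 lower to 6329 and 3625 (median log2 fold change 0.05 to 0.18), and in CBs against OCPs from 2769 and 2494 to 3358 and 1692.

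Replicate numbers are not said to mark a shared litter or day, and deviations from the population means did not pair them: r was -0.181 to 0.308 over 26 pairs of libraries with the same number and -0.312 to 0.413 over 52 with different numbers. With a replicate block, 10, 5, 4, 10, 9 and 6 members passed in the joint test, the 3 steps, CBs against S9-JAG1+ LMPs and S9-SCA-1+ cells, as without it, and no call changed. Igf2bp3 in S9-SCA-1+ cells went from -0.02 to 0.01 on the log2 scale. With 2 or 3 libraries for each population, the steps of Igf2bp1 and Trim71 to OCPs each missed the test without any of 5 libraries, and CBs differ from all others in stage.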
